A study of Mus musculus with 2 samples.

Results

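Isolated intergenic regions are places of open chromatin whose summit lies over 50 kb from the body of every protein-coding gene. The list of open regions of control stem cells held 31831 regions on chromosomes 1 to 19 and X. By this rule 3312 of them (10.4%) were isolated, and their position alone chose them. The other regions were grouped by their summit into 9785 gene-end regions (within 1 kb of the start or end of such a gene), 11717 other gene-body regions and 7017 regions in intergenic space within 50 kb of a gene.

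The regions come from ATAC-seq, which marks accessible DNA by the insertions of a transposase, on bone marrow hematopoietic stem cells of wild-type C57BL/6J mice, sorted as CD48-CD150+LSK. Both groups were transduced with a retrovirus, the control cells with empty pMSCV and the H1C cells with MSCV-H1C, which carries a linker histone. About 1000 cells entered each library, and the age and number of the mice, any pooling and the time after transduction are not given in the sources used here. Each group held 1 library, so no difference has a replicate check and no test between conditions was made. Of 6 genes known for their activity in stem cells (Kit, Ly6a, Slamf1, Procr, Mecom and Hlf), 4 had a control region at a gene end, and Procr and Mecom had none. The highest stack of fragments or reads (pileup) was 24 at Kit, 28 at Ly6a, 18 at Slamf1 and 20 at Hlf. The median over all gene-end regions was 45. The share of all protein-coding genes with such a region is not given, so the count is no check of cell identity. The library depths are not recorded in the lists, and the genome-wide background, solved from the authors' fold and p, was 3.99 in control and 4.40 with H1C.

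Open chromatin far from genes is often formed by enhancers, which transcription factors open and which act on a gene across long distances by looping. It is also found at the start sites of noncoding RNA genes and at sites of the insulator protein CTCF. Reads from sequence that occurs in many copies can collect at a few places where the assembly holds only part of those copies. Linker histones bind DNA at the entry to the nucleosome and favour compact chromatin.

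The label holds for protein-coding genes and not for all genes. In the RefSeq gene table of the same assembly (GRCm38), 267 of the 3312 regions lay within 1 kb of an end of a noncoding gene or pseudogene, 670 others lay inside such a gene, and 710 were over 50 kb from any gene of either kind. The segments of antigen receptor genes are not counted as protein-coding in that table, and 31 regions lay within 50 kb of one. The strongest of these, inside the immunoglobulin heavy chain locus Igh and 64499 bp from Adam6b, had a pileup of 75 in control and 70 in H1C. Regions with their summit 50009 and 50039 bp from a gene (nearest Igf1 and Homer1, pileups of 19 and 21) fell just inside the rule, and those at 49992 and 49988 bp (Enkur and Vtcn1, pileups of 15 and 20) just outside it.

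Some isolated regions sit on the start of a noncoding RNA gene, and there the sequence can be shown. The summits of 44 isolated regions, 13 of them kept, fell inside a RefSeq promoter window, from 250 bases before to 50 after a noncoding start site. Kept means overlapped by a region of the H1C list. Of all isolated regions 19.9% were kept, and of all control regions 34.1%. The windows of the 4 strongest kept regions, of the strongest region without an H1C counterpart (Gm14321) and of Morrbid are printed to show what kept and lost isolated regions at such starts look like, Morrbid because it lies in a gap rich in isolated regions. They are given 5′ to 3′ on the strand of the gene (GRCm38.p6, RefSeq). Capitals mark a match on either strand to any of 5 core motifs, and overlapping matches share capitals. ETS factors were searched by the letters CCGGAA. For the RUNX family, whose members are master regulators of blood cells, the search used TGTGGT. The GATA motif was AGATAA, again a family of blood regulators. AP-1, the dimer of Jun and Fos proteins, was searched as TGANTCA. Factors of the Sp and Krüppel-like families (Sp/KLF) were searched as GGGCGG.
Gm26901: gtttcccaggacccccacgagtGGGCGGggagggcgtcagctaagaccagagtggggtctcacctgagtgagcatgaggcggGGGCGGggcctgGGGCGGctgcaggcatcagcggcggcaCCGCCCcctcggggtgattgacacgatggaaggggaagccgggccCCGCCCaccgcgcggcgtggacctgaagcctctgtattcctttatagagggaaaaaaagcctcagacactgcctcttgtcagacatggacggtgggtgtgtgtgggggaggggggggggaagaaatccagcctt
Mirt1: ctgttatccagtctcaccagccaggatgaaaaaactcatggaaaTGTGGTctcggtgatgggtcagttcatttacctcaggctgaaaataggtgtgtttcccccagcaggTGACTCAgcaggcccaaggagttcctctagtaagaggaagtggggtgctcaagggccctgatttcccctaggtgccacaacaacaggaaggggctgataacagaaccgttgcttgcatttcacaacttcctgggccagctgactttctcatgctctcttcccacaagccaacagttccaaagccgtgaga
BC002059: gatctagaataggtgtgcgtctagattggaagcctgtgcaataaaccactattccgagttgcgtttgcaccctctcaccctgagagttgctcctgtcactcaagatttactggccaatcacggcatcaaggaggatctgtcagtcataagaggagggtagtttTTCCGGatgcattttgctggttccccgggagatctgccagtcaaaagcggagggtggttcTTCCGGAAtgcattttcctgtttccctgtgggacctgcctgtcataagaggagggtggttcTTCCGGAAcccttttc
Dleu2: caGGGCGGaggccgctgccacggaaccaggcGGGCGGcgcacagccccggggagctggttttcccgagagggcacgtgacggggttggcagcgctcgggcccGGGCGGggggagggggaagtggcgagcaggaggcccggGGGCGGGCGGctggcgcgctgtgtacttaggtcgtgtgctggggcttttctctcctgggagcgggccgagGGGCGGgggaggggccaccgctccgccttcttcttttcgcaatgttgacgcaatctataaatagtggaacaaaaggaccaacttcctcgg
Gm14321: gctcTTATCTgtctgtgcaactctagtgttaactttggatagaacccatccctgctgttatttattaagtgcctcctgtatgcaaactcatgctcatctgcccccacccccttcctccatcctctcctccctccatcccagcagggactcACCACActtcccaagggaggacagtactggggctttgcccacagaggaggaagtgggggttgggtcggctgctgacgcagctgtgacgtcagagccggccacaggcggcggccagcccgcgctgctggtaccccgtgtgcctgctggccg
Morrbid: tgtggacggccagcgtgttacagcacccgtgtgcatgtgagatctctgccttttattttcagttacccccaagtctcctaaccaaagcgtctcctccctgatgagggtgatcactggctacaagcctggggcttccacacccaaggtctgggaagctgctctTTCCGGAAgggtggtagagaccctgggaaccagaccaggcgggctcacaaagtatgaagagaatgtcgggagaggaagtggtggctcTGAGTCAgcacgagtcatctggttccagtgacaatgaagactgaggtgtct

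Gm26901 (chr1:7398047-7398346, minus strand) held 5 Sp/KLF matches and a GC content of 65.7%, and its region had pileups of 74 in control and 45 in H1C. Mirt1 (chr19:53464747-53465046, minus) held 1 RUNX and 1 AP-1 match, with pileups of 66 and 26. BC002059 (chr17:16951286-16951585, plus) held 5 ETS matches, counting both strands of the palindrome TTCCGGAA, with pileups of 59 and 26. All 3 regions were lower with H1C in these libraries. Dleu2 (chr14:61682324-61682623, minus), the host gene of the miRNAs miR-15a and miR-16-1, held 6 Sp/KLF matches at 69.0% GC, and its pileups were 57 and 29. Gm14321 (chr2:167777241-167777540, plus), 87015 bp from Cebpb, had a control pileup of 60 and no H1C region. Morrbid (chr2:128429302-128429601, minus), a noncoding RNA known to restrain the neighbouring apoptosis gene Bcl2l11 in myeloid cells, had a control pileup of 33 and no H1C region. RUNX letters were in 18 of the 44 windows (40.9%), against 16.8% of all 32851 promoters of that length. The shares were 15.9% against 14.9% for ETS, 13.6% against 11.2% for GATA, 18.2% against 7.81% for AP-1 and 38.6% against 35.7% for Sp/KLF. Such a match describes the letters and is not a binding site. The 32851 promoters were not limited to open chromatin or to noncoding genes. Promoters open at gene ends were not counted apart, so these differences cannot be tied to isolated position.

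Isolated regions were sparse, and lower and narrower than gene-end regions. Space over 50 kb from protein-coding genes, counted between the first and last gene of each chromosome, made up 36.2% of the length (941 Mb). It held 3.46 control regions per Mb, against 18.7 in intergenic space within 50 kb and 16.2 in gene bodies. Here gene-end regions were not set apart and count in the space that holds their summit. The last 2 spaces thus held 11800 and 16698 control regions, more than the classes of the same name above. The H1C list held 1.11, 8.48 and 6.36 regions per Mb in the same spaces. The number of regions was thus 3.11 times lower with H1C in isolated space. With gene ends included, it was 2.21 times lower near genes and 2.55 times lower in gene bodies.

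The authors' columns show weak signals at most isolated regions. Their median fold over local background was 4.00 (quartiles 3.41 and 4.61), against 4.11 in other intergenic, 4.05 in gene-body and 6.33 in gene-end regions, and these folds describe the control list alone. The median −log10 p was 8.01 (6.58 and 11.1) and the median −log10 q was 5.30 (3.98 and 8.22). The summit pileup, the number of fragments or reads stacked at the summit, had a median of 20 (17 and 25) and ran from 12 to 363, against medians of 23 in other intergenic, 24 in gene-body and 45 in gene-end regions. Median width was 290 bp, close to the 292 bp of other intergenic and 297 bp of gene-body regions and below the 499 bp of gene-end regions, and the summit offset had a median of 143 bp, with the summit near the middle of the region (48.8% of its width). The local background equalled the genome-wide value at 57.5% of isolated regions and at 7.43% of gene-end regions.

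H1C cells kept 658 of the 3312 isolated regions (19.9%, exact Clopper-Pearson 95% interval 18.5 to 21.3, counting error only), and 2654 had no overlapping H1C region. With the control list limited to its strongest regions, as many as the H1C list holds, 51.1% (47.0 to 55.3) of 571 isolated regions were kept. No share over all regions or over the other classes is given for that shorter list. Over all regions of the full control list 34.1% were kept. On the full list the share was 20.6% (19.7 to 21.6) in intergenic space within 50 kb, 21.6% (20.9 to 22.4) in gene bodies and 63.7% (62.7 to 64.6) at gene ends. Kept isolated regions were stronger and wider than lost ones, with a median pileup of 26 against 19 and a median width of 396 against 273.5 bp. Median summit offset was 180 bp in kept and 134 bp in lost regions, and median −log10 q was 8.88 and 5.24. Distance from genes did not separate them, with a median of 116068 bp for kept and 115852 bp for lost regions. By chromosome the kept share ran from 12.2% on chromosome 11 to 27.9% on chromosome 17.

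At a like control pileup, isolated regions were kept at a higher share than other intergenic regions. At pileups of 31 to 40 the share was 36.9% (30.8 to 43.3) of 244 isolated regions, 24.8% (22.1 to 27.5) of other intergenic regions and 46.5% (44.1 to 48.9) of gene-end regions. At 20 or less it was 11.4% (9.96 to 13.0), 9.54% (8.41 to 10.8) and 5.75% (4.16 to 7.72). Above 60 all 75 isolated regions were kept, and many of these had an equal or higher pileup with H1C, as described further on. Weighted over pileup bins, isolated regions exceeded other intergenic regions by 4.40 percentage points (95% counting interval 2.96 to 5.83) and gene-end regions by 2.72 points (1.11 to 4.32). The first difference was 1.58 points within bins of fold, and the second turned to -8.10 points. The order of isolated and gene-end regions therefore depended on whether pileup or fold was matched.

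**Figure D1:**
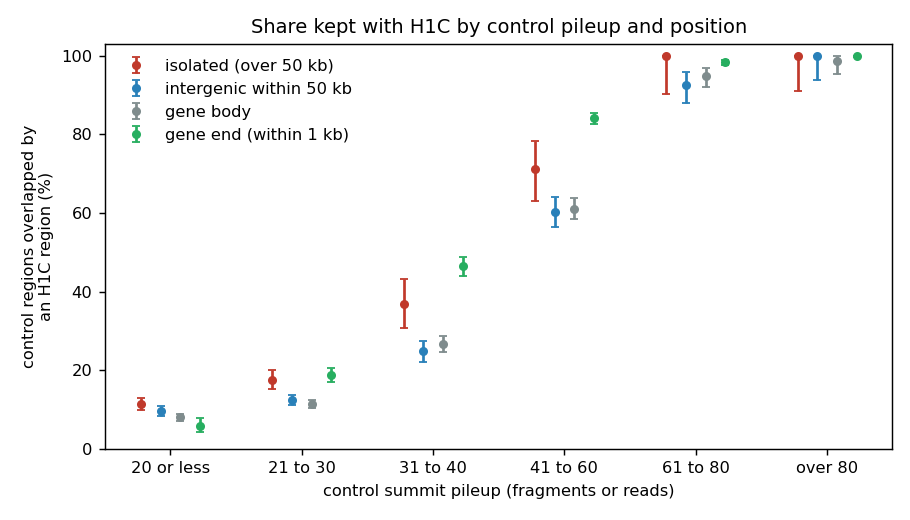
Share of control regions overlapped by an H1C region (y axis, %) by control summit pileup (x axis) for the 4 position classes. Points are shares and bars exact 95% intervals. Isolated regions (red) rise from 11.4% at pileups of 20 or less to 100% above 60, and lie above other intergenic regions (blue) up to a pileup of 80. Many of the isolated regions above 60 had an equal or higher pileup with H1C.

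Kept shares hardly moved with distance. They were 19.6% (17.5 to 21.7) at 50 to 100 kb, 19.9% at 100 to 200 kb, 20.9% at 200 to 500 kb, 17.5% at 500 to 1000 kb and 20.7% (7.99 to 39.7, 29 regions) beyond that. Median pileup fell from 21 in the nearest to 18 in the farthest class. The farthest region lay 2212837 bp from Pik3c3, a lipid kinase gene, with a pileup of 19 and no H1C region. Of the 10 farthest, 1 was kept, at chromosome 1, 102628116 to 102628406, 2137691 bp from Cntnap5b, a neuronal adhesion gene. Its pileup was 33 in control and 27 in H1C, a log2 ratio, scaled by the genome backgrounds, of -0.43 (95% interval -1.22 to 0.35). The other farthest regions lay nearest to Cdh20, Slc39a10, G6pd2, Efna5, Cntnap5b, Nmbr, Iftap and Lrfn5, with pileups of 14 to 26. Of the 10, 7 had a pileup below the isolated median of 20, and the kept region was the highest.

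Isolated regions were spread thinly. The median distance from an isolated summit to the next control summit was 26966 bp (quartiles 7674 and 77738), against 11189 bp for gene-end regions. For 684 regions no other control summit lay within 100 kb, and 20.6% (17.6 to 23.8) of these were kept. Another isolated summit lay within 10 kb of 939 regions, of which 24.2% (21.47 to 27.04) were kept, against 18.2% (16.6 to 19.8) of the 2373 others. These grouped regions were also stronger, with a median pileup of 23 against 19, and the shares were not matched for pileup. Without the regions of equal or higher height and those of high local background, described further on, the share of grouped regions was 21.2%. The others were not filtered in this way. Of 2768 gaps between genes that are long enough to hold isolated space, 1149 held an isolated region and 58.5% held none.

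Pileups with H1C fell into 2 patterns among strong isolated regions. Of the 234 isolated regions with a control pileup of at least 40, called strong here, 185 were kept (79.1%, 73.3 to 84.1), against 83.1% of strong control regions at any position. The log2 ratio of H1C to control pileup, divided by the genome background ratio, had a median of -0.80 (quartiles -1.10 and -0.18, SD 0.52) over these 185 regions. At gene ends the median was -0.89 and the SD 0.26. The isolated regions formed a main group near -1 and a smaller one near 0. H1C pileup was under 0.75 of control at 116 of the 185 regions, from 0.75 to under 0.9 at 13, within 10% of control at 32, and over 10% higher at 24.

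**Figure D2:**
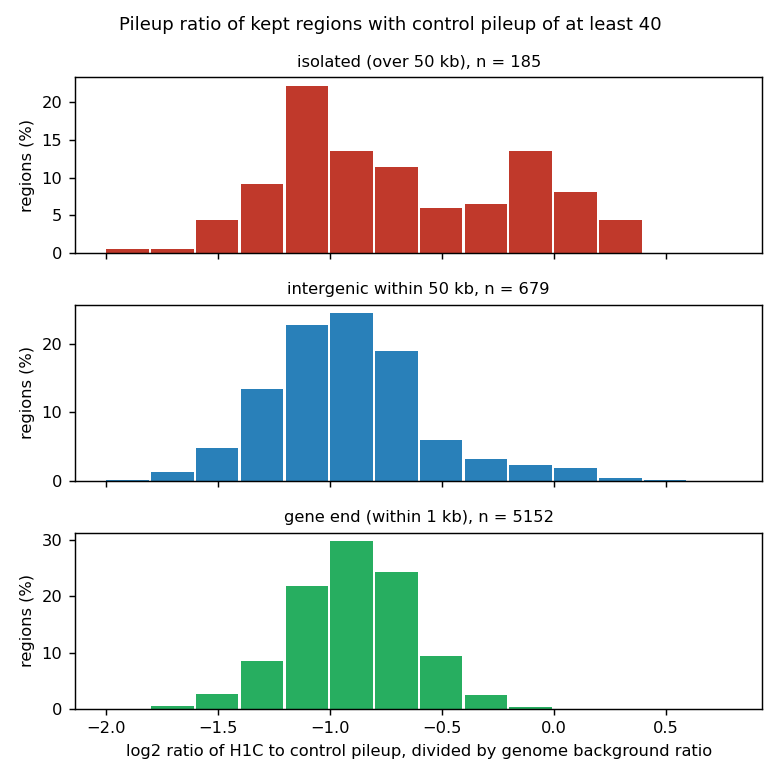
Distribution of the log2 pileup ratio, H1C over control, scaled by the genome backgrounds (x axis) for kept regions with a control pileup of at least 40, as the percentage of regions per step of 0.2 (y axis). Isolated regions (185) have a second group near 0 beside the main one near -1, while gene-end regions (5152) have 1 group around -0.89.

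Regions of equal or greater height in both libraries made up a larger share of strong regions far from genes than elsewhere. An isolated region was called equal when its control pileup was at least 40 and the unscaled H1C pileup was within 10% of it. There were 32 equal regions among 234 strong isolated ones (13.7%, 9.55 to 18.8), against 1.55% of all 8831 strong control regions. A further 24 were over 10% higher with H1C (10.3%, 6.68 to 14.9), against 0.611% of all strong control regions. Equal and higher regions together were 56 of 234 (23.9%, 18.6 to 29.9) among isolated, 4.28% (3.11 to 5.72) among other intergenic, 2.19% among gene-body and 0.881% (0.654 to 1.16) among gene-end regions, against 2.16% overall. The 56 regions lay at 28 places, counting neighbours within 300 kb as 1 place, and 34 of them lay at 6 places with several each. The intervals treat neighbouring regions as independent and are thus likely too narrow. Places were not counted in the other classes, so the classes are compared by region only.

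The largest of these places was the start of the assembled sequence of chromosome 9. Between 3000007 and 3259003, 15 isolated regions nearest to Alkbh8 (a tRNA-modifying enzyme gene, at least 76389 bp away) were all kept, 7 equal and 8 higher. The strongest had pileups of 271 in control and 291 in H1C, and 1 region, the last, was lower with H1C (50 in control and 47 in H1C). The second, on chromosome 4 from 3050006 to 3090263 near the pheromone receptor gene Vmn1r2, held 6 such regions with control pileups of 40 to 78 and H1C pileups of 57 to 82. Those from 3082762 and 3083271, at 60 and 78 in control, had the same H1C pileup of 82 and background of 28.2. The same H1C region therefore probably counts for both. On chromosome 2, from 98662207 to 98667354 and over 1 Mb from Lrrc4c (1031016 to 1035052 bp), a synaptic adhesion gene, 4 regions had control pileups of 147 to 363 and H1C pileups of 164 to 381, with local backgrounds of 61.3 to 61.6. Chromosome 17 held 4 near Tcte2 (13550621 to 13655311, control pileups of 83 to 272) and 2 near Esp38 (39843040 to 39848793, pileups of 290 and 286 in control and 270 and 260 in H1C). Those near Esp38 had the highest local backgrounds, 142.8 and 134.7, and lay within 2140 bp of the ribosomal RNA copy Rn18s-rs5 or at AY036118. Chromosome 14 held 3 near Gm2244 (19415713 to 19418986), with control pileups of 151 to 193 and H1C pileups of 161 to 216.

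Local background was high at many of these regions. It was at least 5 times the genome background at 22 isolated regions. All 22 were kept, and 15 of them were equal and 6 higher. The other 35 equal or higher regions had a lower background, among them the 5 with the highest folds in their group. Near Rab10 (chromosome 12, 3109787 to 3110202, fold 26.0) the pileup was 187 in both libraries at a background of 6.22. The regions near Cr2 (chromosome 1, 195241470 to 195241971) and Axin2 (chromosome 11, 109011576 to 109012166) had pileups of 145 and 137, and of 216 and 196. Those near Kcnh5 and Epha7 had 101 and 114, and 77 and 86. Their repeat content was not analysed here.

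Many also lay at chromosome starts. The assembled sequence begins after 3 Mb, and 58 isolated regions on 11 chromosomes began before 3.5 Mb. Of these 72.4% (59.1 to 83.3) were kept, and 28 of the 31 strong ones were equal or higher. Past 3.5 Mb, 28 of 203 strong isolated regions were still equal or higher (13.8%, 9.37 to 19.3), and the median log2 ratio of the kept ones was -0.91. Chromosome starts, local background and equal height therefore went together for part of the set, and their part in the result was not tested.

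**Figure D3:**
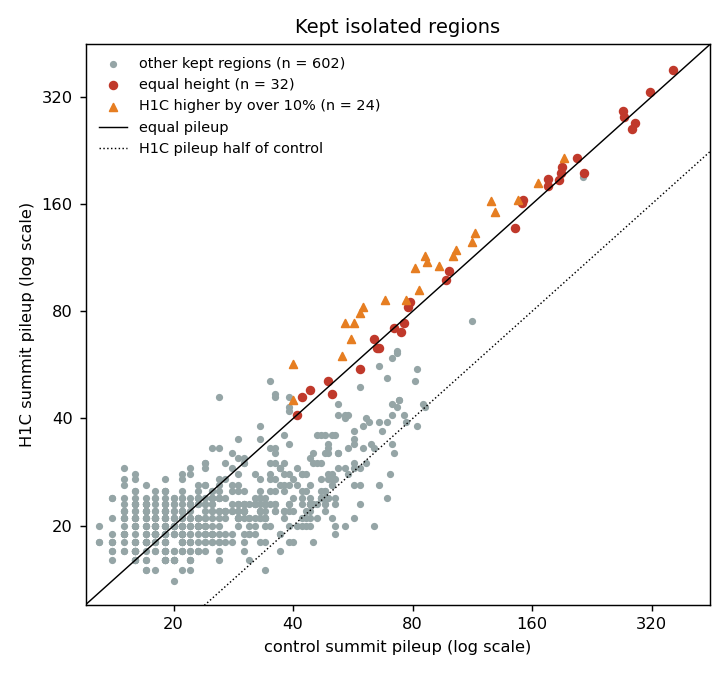
Summit pileup in H1C (y axis, log scale) against control (x axis, log scale) for the 658 kept isolated regions, 1 point per region. Regions of equal height (32, red) and regions over 10% higher with H1C (24, orange) follow the solid line of equal pileup up to 363 and 381, while most other regions above a control pileup of 40 lie closer to the dotted line, where H1C is at 0.5 of control.

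Without the equal and higher regions, strong isolated regions had lower H1C pileups throughout. Leaving them out removes the high ratios by construction, so the values that remain describe the main group alone. The remaining 129 kept regions had a median log2 ratio of -1.01 (quartiles -1.17 and -0.76). The same omission left -0.97 in other intergenic, -0.94 in gene-body and -0.89 in gene-end regions. Below a pileup of 20 the ratio says little, because no isolated H1C region had a pileup under 14 and a region had to be called to have a ratio. The need for a call also bears on higher pileups, since 17.5% of isolated regions were kept at 21 to 30 and 36.9% at 31 to 40. The median ratio was 0.03 at control pileups of 20 or less, -0.33 at 21 to 30 and -0.71 at 31 to 40.

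Among the 10 strongest kept isolated regions that were neither equal nor higher, a log2 ratio below 0 follows from this choice, and only its size is informative. Near Pex2, a peroxisome biogenesis gene (chromosome 3, 5860275 to 5860900), the summit stood at 215 in control and at 191 with H1C (log2 -0.31, 95% interval -0.60 to -0.02), just outside the 10% bound. At the noncoding gene D130051D11Rik (chromosome 15, 85634344 to 85635219), 52856 bp from Wnt7b, it was 113 and 75 (-0.73, -1.17 to -0.30). Near Chd2, a chromatin remodeller gene (chromosome 7, 73618179 to 73619011), it was 85 and 44 (-1.09, -1.65 to -0.55). Near Cd83, an immune surface protein gene (chromosome 13, 43864437 to 43864910), it was 76 and 41. These 3 had H1C pileups under 0.75 of control, as did most kept strong isolated regions. The kept regions with the highest control fold were mostly of the other kind: of the top 10, 8 lay at or above 0.88 of the control pileup, and the remaining pair, near Mc2r and Gm15319, had pileups of 73 and 62 and of 71 and 59.

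Among isolated regions with no H1C counterpart, the 10 with the highest fold lay next to genes of varied function. The first lay 118182 bp from Abca1, a cholesterol exporter gene (chromosome 4, 53277860 to 53278500, fold 9.54, pileup 49). It was followed by regions near Dusp4, a MAP kinase phosphatase gene (chromosome 8, 34622641 to 34623043, fold 9.22, pileup 51), Eea1, an endosome protein gene (fold 9.20, pileup 45), Vps8 (fold 9.07, pileup 48) and Tram1 (fold 8.62, pileup 42). The others lay near Prkcq, a T cell kinase gene (pileup 51), Mef2c, a myeloid and lymphoid transcription factor gene (pileup 41), Gadd45g, a stress response gene (pileup 49), Fggy (pileup 41) and Lef1, a Wnt pathway transcription factor gene (pileup 43). Their pileups are near the level at which isolated regions went from mostly lost to mostly kept.

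The isolated regions had 1489 different nearest protein-coding genes, and 760 of these genes had a single region. Id2, an inhibitor of basic helix-loop-helix factors in blood lineages, had the most, with 19 regions at 61403 to 342495 bp, of which 5 were kept. Its strongest (chromosome 12, from 25189055) had pileups of 48 and 36, and the next, without an H1C region, had 38. Myc, the growth regulator, had 16 regions, of which 1 was kept (pileups of 29 and 23), and the strongest, at chromosome 15 from 62169368 inside the noncoding gene Pvt1, had a pileup of 45 and no H1C region. Inside Pvt1 1 of 8 isolated regions was kept. Over all isolated regions 19.9% were kept, so a majority without an H1C region is not particular to these genes.

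Foxo1, a transcription factor of stem cell quiescence and stress resistance, had 13 regions, of which 3 were kept. They had pileups of 59 and 55, of 47 and 24, and of 32 and 28. The first counts as equal height and lies 93977 bp away, and the second lies 205145 bp away (log2 ratio -1.11, -1.89 to -0.37). Cxcr4, the receptor that holds stem cells in the marrow, had 11 regions and 3 kept. They had pileups of 57 and 26, 43 and 28, and 35 and 27. All were lower with H1C, but the last had a log2 interval of -1.30 to 0.25. Gadd45g had 13 regions with 1 kept (34 and 23), and its strongest (49) was lost. Adgrl2, a synaptic adhesion receptor gene, had 14 regions with 3 kept. Pdcd6ip had 13 with 3 kept, at pileups of 20 and 16, 17 and 19, and 17 and 21. Dok5 had 12 with 2 kept, at 14 and 21 and at 13 and 20. Eea1, with 11 regions, had 1 kept, at 16 and 21. Lower H1C height thus did not hold at every gene with many regions, though these pileups are low.

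The 5 gaps with the most isolated regions held 18 to 23 each. The gap from Id2 to Rnf144a (1.21 Mb) held 23 with 5 kept, and the gap from Myc to Gsdmc (1.79 Mb) held 21 with 1 kept. The gap from Irf2bp2, a transcriptional corepressor gene, to Tomm20, a mitochondrial import receptor gene, spans only 0.337 Mb and held 20 with 6 kept. Of its 9 strong regions 5 were kept. The strongest, at chromosome 8 from 126847518, had pileups of 86 and 43 (log2 ratio -1.14, -1.71 to -0.60), and others in this gap had 66 and 39, and 55 and 33. The gap beside Bcl2l11 (0.429 Mb, to Spdye4c) held 19 with 3 kept, and 11 lay inside Morrbid, of which 2 were kept. The strongest of the gap, just outside Morrbid and 132664 bp from Bcl2l11, had pileups of 48 and 32. The gap from Arpp21 to Pdcd6ip (1.42 Mb) held 18 with 4 kept and no strong region.

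**Figure D4:**
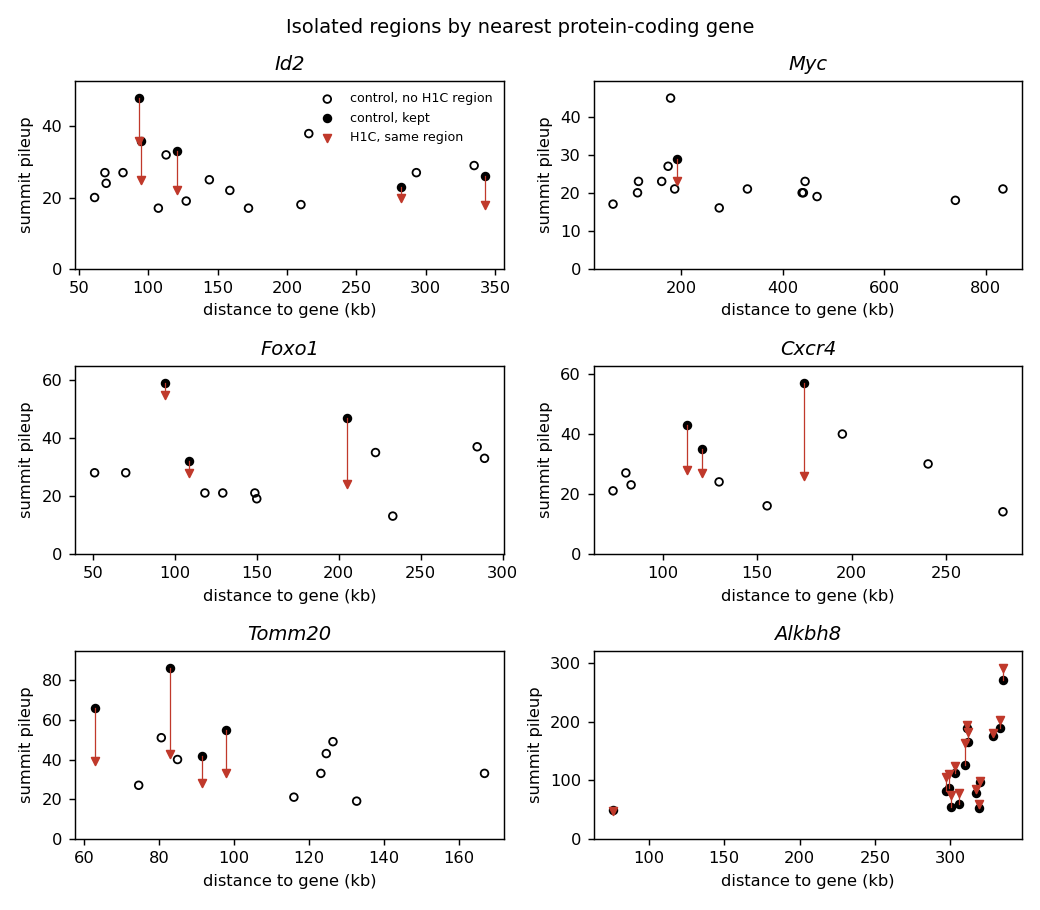
Summit pileup (y axis) of isolated regions against distance to their nearest protein-coding gene (x axis, kb) for 6 genes. Other genes with many regions, such as Pdcd6ip and Dok5, are not drawn, and some of their kept regions were higher with H1C. Open circles are control regions with no H1C region, filled circles kept control regions and red triangles the H1C pileup of the same region. Triangles lie below the circles near Id2, Myc, Foxo1, Cxcr4 and Tomm20, and all 15 regions near Alkbh8 were kept, 14 with H1C above control.

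Isolated regions nearest to blood regulator genes (a list of 68 transcription factor, receptor and cell cycle genes known in blood cells, 36 with a region) numbered 191, of which 34 were kept (17.8%, 12.7 to 24.0), against 19.9% of all isolated regions. Of the 27 strong ones 17 were kept and 1 was equal. Cebpb, a myeloid transcription factor gene, had 9 regions with 4 kept, at pileups of 72 and 32, 71 and 41, 52 and 29, and 49 and 33. Jun, a component of AP-1, had 8 with 3 kept, the strongest at 60 and 33. Zfp36l2, an RNA-binding protein gene needed by blood stem cells, had 7 with 2 kept, the strongest at 74 and 45. Klf6 and Tgfbr2 had 6 regions each, Bcl11a, Lmo4 and Mef2c 5 each, and Bach2 and Kit 4 each, none of them kept, although the strongest near Tgfbr2 had a pileup of 53. Klf4, a pluripotency and monocyte factor gene, had a region with a pileup of 42 and no H1C counterpart. The 34 kept regions of the list had a median log2 ratio of -0.67, against -0.28 over all kept isolated regions. The median control pileup was 23 over all 191 regions of the list, against 20 over all isolated regions. The ratios were not compared at like pileup. Near Runx1, a master regulator of blood stem cells, the 1 kept region of 4 had a pileup of 21 in both libraries.

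Developmental transcription factor genes, a class that is often flanked by long gene-free stretches, had 158 isolated regions at 54 genes, of which 24 were kept (15.2%, 9.98 to 21.8). Satb1, a chromatin organizer gene, had 5 regions, the strongest with a pileup of 48 and no H1C counterpart and the next kept at 47 and 36, and the strongest of 12 near Sall3 (pileup 41) also had none. Neural adhesion and synapse genes had 120 regions at 63 genes with 23 kept (19.2%, 12.6 to 27.4). The strongest by fold was near Epha7, already described. Csmd1 had an equal region at 42 and 46 (log2 interval -0.65 to 0.63), and Adgrl2 one at 41 in both libraries (-0.80 to 0.52). Intervals this wide do not exclude a lower height with H1C.

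Chemosensory receptor genes had the highest kept share of the 4 lists, with 21 of 36 isolated regions kept (58.3%, 40.8 to 74.5). These 36 lay at 7 genes, and 24 of them began before 3.5 Mb, where the kept share was high for all isolated regions. They included 4 equal and 5 higher regions. Without those 9, 12 of 27 were kept (44.4%, 25.5 to 64.7). Near Vmn2r87, a pheromone receptor gene on chromosome 10, 1 region stood at 56 in control and at 67 with H1C. Near Olfr161, an odorant receptor gene on chromosome 16 with 11 regions, the strongest pair of values was 59 in control and 49 in H1C, and the regions with the highest fold had 39 and 42, and 36 and 47. Chromosome start and gene class cannot be told apart for most of this list.

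Kept shares at noncoding gene ends were close to those of other isolated regions. The kept share was 19.1% (14.6 to 24.3) of the 267 regions at noncoding ends, 20.4% (17.5 to 23.7) of the 670 inside noncoding genes and 19.6% (16.7 to 22.7) of the 710 far from any gene. Of the 200 at lncRNA ends it was 21.5% (16.0 to 27.8). Near the miR-17 cluster gene Mir17, which drives growth in blood cells, the rule divided neighbouring regions. A region 51308 bp from Gpc5 (chromosome 14, from 115040513, pileup 44) was isolated and had no H1C counterpart. The next, at 49987 bp and so outside the rule, was kept at 37 and 21.

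In the H1C list 1091 of 13001 regions (8.39%) were isolated by the same rule, and 432 of them overlapped no control region (39.6%, 36.7 to 42.6), against 15.0% of all H1C regions. That share was 28.1% (26.2 to 30.1) in other intergenic space. These shares were not compared at like pileup. H1C regions also in control had a median pileup of 22 where isolated and 30 where not. The isolated regions called only with H1C had a median pileup of 19, against 22 for those also in control, and 2 of them reached 40. These lay near Gm2244 (chromosome 14, 19419265 to 19419566, pileup 111 at a local background of 37.4) and Olfr161 (pileup 46), beside regions of equal or higher height. By fold the first H1C-only regions lay near Plcl1, Ntrk2 (a neurotrophin receptor gene), 1810013L24Rik, Gm6650 and Prdm8, each with a pileup of 26 and a fold of 5.00. The 432 made up 22.2% of all 1947 H1C-only regions.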

How the data were processed

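ATAC-seq was analysed from 1 control and 1 H1C library, grouped by their treatment label. The submitters' processing notes name mm10 as the build, MACS2, Picard and featureCounts without versions, Bowtie2 2.2.9 and Trim Galore 0.4.4. Their settings, the treatment of duplicates and any shift of reads are not given in the sources used here, and both could alter heights and summits. The authors called regions per library. Their deposited values are a fold (ratio of summit pileup to local background, 1 added to each), −log10 p, −log10 q, a score and a summit offset.

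Pileup and background were solved from the deposited fold and −log10 p, with a whole pileup within a relative tolerance of 0.0001 at all 32005 control and 13156 H1C rows (checked on simulated data). Genes came from a RefSeq table of GRCm38 with 21887 protein-coding genes, which gives gene bodies and no genome sequence. A region was kept when at least 1 bp overlapped an H1C region, and its H1C pileup was the highest among them. Shares have exact Clopper-Pearson intervals, pileup ratios exact conditional binomial intervals and binned differences intervals from binomial variances. All cover counting error only, and amplified fragments are not independent. Intervals of shares also treat neighbouring regions as independent.

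The members and lists were chosen with earlier results of these data known. Regions are named by these rules: the 10 kept and 10 lost with the highest fold, the 10 farthest, the 10 of equal height with the highest pileup, the genes nearest to most regions, and up to 5 per gene list by fold. The region groups by gap, promoter window, chromosome start and local background, other regions named beside them and the class of higher regions were chosen after their values were seen. Not all regions that the rules name are printed, and 1 of them is not reported here. Alternatives covered distance, overlap, threshold, bins and scaling. Intervals came from scipy 1.17.1, figures from matplotlib 3.10.9 and tables from pandas 2.3.3 with numpy 2.4.6, under Python 3.11.15.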

Additional observations from a re-analysis of the deposited data

How the results depend on the processing

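No paired analysis was possible because control and H1C had 1 library apiece. Among 44 alternatives over 9 results, 21 left the value inside its interval or quartiles (or a count within 1.5 times), and for the others the cause was not tested beyond what the alternative changes by its construction. Isolated regions numbered 5063 over 25 kb, 1896 over 100 kb, 710 over 50 kb from any gene and 1856 with −log10 q of at least 5; in H1C there were 669 over 100 kb. The kept share was 15.2% where overlap had to reach 50% both ways, 17.6% where summits had to lie within 200 bp, 18.2% where both lists were limited to −log10 q of 5 or more, 27.1% where only control was, 51.1% with lists of equal length and 18.5% without regions of equal or higher height. The kept-share difference to other intergenic regions was -0.75 points without bins, 1.58 in fold bins and 6.12 at the stricter q. The difference to gene-end regions was -43.8 points without bins, -8.10 in fold bins and 0.74 at the stricter q. The median log2 ratio of all kept isolated regions (-0.28) turned to 0.060 when the median ratio of local backgrounds (0.869) set the scale, was -0.80 at pileups of at least 40 and -1.01 there without equal or higher regions. Equal regions numbered 15 within 5% and 53 within 20%. Grouped regions were kept at 21.2% without equal, higher or high-background ones. For 75 named kept regions, 131 of 150 rescaled ratios stayed within their interval. Each rescaling shifts all ratios by the same amount, so this count reflects the width of the intervals. The alternatives without equal or higher regions or high background, those at the stricter q in bins and those for single regions were chosen after seeing the data. Pileups under 40 are too low to tell a change of 1.5 times from counting error at single regions. Some pileups above 40 are too low as well, such as those of the equal regions near Csmd1, Adgrl2 and Foxo1.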
